A study of Mus musculus with 24 samples.

Results

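A set of 5 hormone genes in mouse inguinal white adipose tissue is described here: the oestrogen receptor alpha gene Esr1, the progesterone receptor gene Pgr, the prolactin receptor gene Prlr, the oestrogen-induced gene Greb1 and Areg, which encodes the growth factor amphiregulin. They were chosen by symbol and are 5 of the 16118 genes in the deposited table. Inguinal white adipose tissue is a subcutaneous fat depot that, in the mouse, also holds mammary ducts. Poly(A) RNA was sequenced from 24 mice in 6 groups of 4. Males and females were taken at postnatal day 21 (p21), or at day 28 (p28). The p28 mice had either left their mother on day 21, called standard weaning (SW), or were still housed with her, called delayed weaning (DW). No genotype, strain or other treatment is given in the labels for any group. The series asks how adipose tissue of the 2 sexes is remodelled when breastfeeding is prolonged.

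Oestrogen binds the receptor encoded by Esr1, a transcription factor that acts in adipocytes, stromal cells and mammary epithelium. Pgr and Greb1 are among its best known targets, and the progesterone receptor in turn acts through secreted factors such as Wnt4. Prolactin signals through the membrane receptor encoded by Prlr and through JAK2 and STAT5. Amphiregulin is made by luminal mammary cells downstream of the oestrogen receptor and activates the EGF receptor on neighbouring stroma, a step of duct growth at puberty.

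The promoters of Areg, Pgr and Greb1 are shown because these are the genes whose levels rose with age in females. Each is the 250 bases before the RefSeq start on GRCm38.p6, written 5′ to 3′ on the gene's strand. Capitals mark matches to the motifs searched on both strands: the cAMP response element TGACGTCA and its core TGACG, the oestrogen response core GGTCA, the TATA box motif TATAAA, the STAT5 site (TTC followed, after any 3 bases, by GAA), the progesterone or glucocorticoid element (ACA followed, after any 3 bases, by TGT), and a full oestrogen response element, which is the oestrogen core, any 3 bases and then the reverse complement of that core.
Areg, chr5:91139349-91139598, plus strand: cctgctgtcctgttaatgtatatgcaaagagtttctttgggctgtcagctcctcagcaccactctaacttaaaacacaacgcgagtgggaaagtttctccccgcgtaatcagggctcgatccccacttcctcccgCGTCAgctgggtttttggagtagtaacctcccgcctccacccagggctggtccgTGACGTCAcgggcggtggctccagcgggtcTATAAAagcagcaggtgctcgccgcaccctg
Pgr, chr9:8899583-8899832, plus strand: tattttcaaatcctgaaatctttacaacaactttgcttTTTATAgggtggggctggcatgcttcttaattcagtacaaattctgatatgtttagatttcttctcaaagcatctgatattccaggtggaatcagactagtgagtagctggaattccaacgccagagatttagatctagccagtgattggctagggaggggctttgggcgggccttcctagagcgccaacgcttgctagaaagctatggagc
Greb1, chr12:16800887-16801136, minus strand: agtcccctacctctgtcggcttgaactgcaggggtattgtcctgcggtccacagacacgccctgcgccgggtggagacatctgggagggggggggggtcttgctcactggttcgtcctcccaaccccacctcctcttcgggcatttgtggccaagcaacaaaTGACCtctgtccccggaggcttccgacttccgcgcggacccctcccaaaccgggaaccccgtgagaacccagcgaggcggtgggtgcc
In Areg, TGACGTCA begins 61 bases before the start, and 1.79% of 32851 promoter windows hold that motif. The windows searched, for the 5 genes and for these shares, reach from 250 bases before the start to 50 bases past it, further than the stretches printed. The Areg window also holds TATAAA, 31 bases before the start (13.62% of windows), and a separate CGTCA, the reverse strand of the cAMP core, 115 bases before it (20.81% of windows hold a core). Past the printed stretch, the Areg window holds TGACC 25 bases into the transcript, and an Esr1 window holds the oestrogen core 16 bases into it. In Greb1, TGACC, the reverse strand of the oestrogen core, begins 88 bases before the start, and 40.48% of windows hold such a core. The Pgr window matched the TATA box letters on the reverse strand 212 bases before the start. The full oestrogen element occurs in 0.07001% of windows and in none of the 9 windows listed for the 5 genes. A further Prlr window and a further Esr1 window each hold TTCTAGGAA, a STAT5 match, 110 and 188 bases before their starts (8.298% of windows). The progesterone or glucocorticoid element matched 229 bases before the start of the other Greb1 window (6.846% of windows). That Greb1 window also holds the oestrogen core GGTCA 194 and 85 bases before its start. The further Prlr window also holds the cAMP core TGACG, 230 bases before its start.

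The recovered reads per library ranged from 57600711 to 302145813, and 3 reads were worth 0.0107 to 0.0462 of the deposited normalised unit. Levels below are in that unit, as mean ± SD with n = 4 mice unless stated. Male p21 animal 53, with 14054 genes detected, and SW male animal 84, with 15497, stood below the other libraries (15859 to 16066). DW females 82 and 83 stood apart from DW females 76 and 77: the chi-square per degree of freedom of the recovered reads was 594 to 789.7 between these pairs and 364 or less between any other 2 libraries of 1 group. Where stated, results on DW females are therefore also given without animals 82 and 83, an alternative chosen after seeing the data. In it the 2 remaining DW females take their spread from all groups. All other results on DW females, among them the ratios between genes and the covariate fit described below, rest on all 4 animals. All 8 adipocyte markers were detected in every library, with a summed level of 22183 or more. The 12 luminal mammary markers summed to 4.65 to 19.9 in males at p21, 6.26 to 45.0 in males after SW and 7.88 to 18.8 after DW, against 28.3 to 98.0 in p21 females, 289 to 395 in SW females and, in DW females, 227 and 197 in animals 76 and 77 but 92.0 and 105 in animals 82 and 83. Up to 7 of these 12 genes were at 0 in a p21 male, and none was at 0 in any female. In bulk tissue, fewer cells of a type and less RNA per cell cannot be told apart. Skeletal muscle markers varied widely within groups, for example from 2.98 to 1734 summed over 7 genes in DW females.

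Of the 5 genes, Esr1 varied least between the group means. Its mean level lay between 45.3 ± 8.24 in DW males and 70.9 ± 28.5 in p21 males. The p21 males read 107, 79.7, 51.6 and 45.0, and the p21 females 69.6, 76.7, 56.9 and 63. SW males read 38.7, 71.9, 56.3 and 58.4, and SW females 62.8, 87.3, 59.4 and 60.2. These groups overlapped. DW males read 46.3, 33.5, 52.1 and 49.3, below all 4 DW females at 58, 56.8, 82.4 and 77.7. In order of mean the groups ran p21 males, DW females (68.7 ± 13.3), SW females (67.4 ± 13.3), p21 females (66.6 ± 8.54), SW males (56.3 ± 13.6) and DW males, and each neighbouring pair overlapped. Within groups Prlr was at times tighter, as in SW females, where the coefficient of variation was 19.8% for Esr1 and 8.87% for Prlr.

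Pgr was at or near background in most males and clearly present in every female. The p21 females read 1.81, 1.42, 0.578 and 3.50. SW females read 11.6, 10.1, 14.1 and 6.64, and DW females 5.49, 7.15, 4.02 and 8.05. The SW and DW females overlapped each other, and all 8 were above the highest p21 female. Among p21 males, animal 54 read 0.199 from 24 reads and the other 3 had 2 reads or fewer. Among SW males, animal 78 read 1.23 from 129 reads, 94.2% of that group's 137 reads, and the others had 6 reads or fewer. DW males read 0.0141, 0.105, 0.321 and 0, and animal 86 gave 34 of the group's 50 reads. SW male 78 was therefore above the lowest p21 female, and every other male was below every female. The mean fell in the order SW females (10.6 ± 3.13), DW females (6.18 ± 1.79), p21 females (1.83 ± 1.23) and the 3 male groups, whose ranges overlapped.

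**Figure D1:**
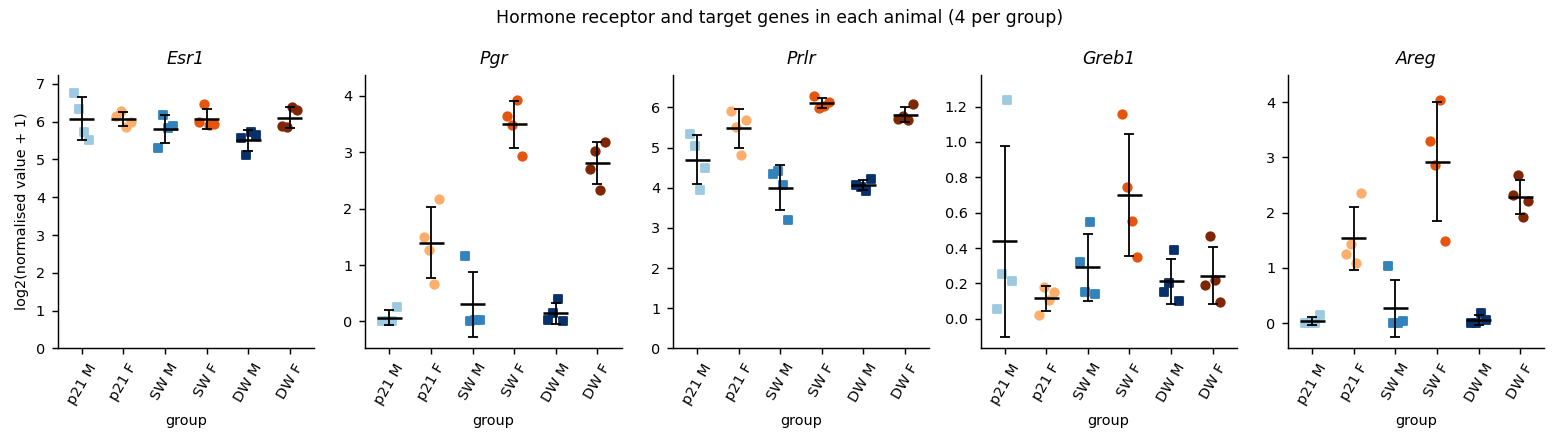
Normalised level of each gene on the log2(value + 1) scale (y axis) in 6 groups of 4 mice (x axis; SW and DW are the p28 groups), with 1 point per animal, squares for males and circles for females; black lines show the group mean and bars the SD. Pgr and Areg sit near 0 in males apart from single animals, Prlr splits by sex at p28, and Esr1 stays between 5.1 and 6.8 in every animal.

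Prlr, unlike Pgr, was present in all 24 mice. SW males read 19.1, 20.2, 15.7 and 8.12, and DW males 15.8, 15.3, 14.2 and 17.6. SW females read 76.6, 62.8, 65 and 69.5, and DW females 51.6, 53.8, 50.4 and 66.8. The lowest p28 female was thus above the highest p28 male. At p21 the sexes overlapped, with males at 39.4, 31.7, 14.3 and 21.7 and females at 58.8, 44.4, 26.9 and 50.7. By mean the order was SW females (68.5 ± 6.08), DW females (55.6 ± 7.57), p21 females (45.2 ± 13.5), p21 males (26.8 ± 11.1), SW males (15.8 ± 5.45) and DW males (15.7 ± 1.41), and neighbours overlapped throughout.

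Areg followed the order of Pgr among the female groups. The p21 females read 1.39, 1.68, 1.14 and 4.13, and the DW females 3.99, 5.43, 2.79 and 3.63. SW females spread most, at 8.89, 6.31, 15.4 and 1.79, so that SW female 81 lay within the p21 female range. In males most reads came from the animals with the most Pgr reads. Animal 54 held 13 of 13 reads at p21, animal 78 held 109 of 112 in SW and animal 86 held 15 of 20 in DW. The other 5 reads in DW males lay in animal 87, which had no Pgr read. Areg read 1.04 in SW male 78 and 0.142 or less in the other 11 males. The means were 8.09 ± 5.67 in SW females, 3.96 ± 1.1 in DW females and 2.08 ± 1.379 in p21 females.

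Greb1 was low in every group. SW females read 1.23, 0.677, 0.469 and 0.272 from 28 to 192 reads, and p21 females 0.0160, 0.132, 0.0771 and 0.110 from 2 to 14 reads. These 2 groups did not overlap. DW females had a mean of 0.190 ± 0.137, SW males 0.231 ± 0.167 and DW males 0.161 ± 0.105. The single highest Greb1 value of the series was in p21 male 53, at 1.36 from 88 reads, in the library with the fewest detected genes. The other 3 p21 males read 0.0388, 0.190 and 0.158.

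Per kilobase of exon, the only scale on which levels of different genes were compared, the mean level in SW females was 6.66 for Areg, 4.94 for Esr1, 4.46 for Prlr, 1.24 for Pgr and 0.0691 for Greb1. In SW males Esr1 led with 4.12 per kilobase, followed by Prlr with 1.03, Areg with 0.219, Pgr with 0.0372 and Greb1 with 0.0241. In SW females the Areg level of 6.66 ± 4.67 (SD) per kilobase thus covered the Esr1 level. In the other female groups Areg was below Esr1, at 1.72 ± 1.13 against 4.87 per kilobase in p21 females and 3.26 ± 0.905 against 5.03 in DW females.

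The first comparison asked whether the sexes differed at each age and weaning state. Pgr, Prlr and Areg were higher in females than in males at p28 after both weaning regimes, and Pgr was higher in females already at p21. Esr1 and Greb1 passed the test at no age. After standard weaning the change on the log2(value + 1) scale was 3.19 ± 0.28 (SE) for Pgr (limma adjusted p = 3.34e-08), 2.66 ± 0.36 for Areg (limma adjusted p = 1.66e-05) and 2.12 ± 0.27 for Prlr (limma adjusted p = 5.78e-06). Thus 3 of 5 genes were called, against 3.54% of the 16005 genes tested. After delayed weaning the same 3 genes were called, with 2.67 ± 0.28 for Pgr (limma adjusted p = 2.54e-06), 2.22 ± 0.36 for Areg (limma adjusted p = 0.000436) and 1.75 ± 0.27 for Prlr (limma adjusted p = 0.000203), where 2.46% of all genes were called. Without DW females 82 and 83 these 3 genes were still called, at 2.72, 2.44 and 1.68. Esr1 differed by 0.59 (95% interval 0.12 to 1.06) in DW animals, with a limma adjusted p of 0.162. At p21, where 0.356% of genes were called, Pgr differed by 1.33 ± 0.28 (limma adjusted p = 0.0316). Areg differed by 1.497 ± 0.36 at p21 (limma adjusted p = 0.0889) and Prlr by 0.78 ± 0.27 (limma adjusted p = 0.408). Leaving out any 1 of 6 of the 8 p21 animals ended the Pgr call at p21, as did leaving out libraries 53 and 84 together (limma adjusted p = 0.155).

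The log2(value + 1) scale compresses genes near 0, so the count test on recovered reads gave larger sex differences for Pgr and Areg. By edgeR's quasi-likelihood test the female minus male log2 difference after standard weaning was 5.06 for Pgr (adjusted p = 0.0146), 4.93 for Areg (adjusted p = 0.0243) and 2.09 for Prlr (adjusted p = 7.27e-05). After delayed weaning edgeR gave 5.88 for Pgr, 6.52 for Areg and 1.85 for Prlr, with adjusted p-values of 0.0122, 0.0123 and 0.000634. At p21 edgeR gave 5.09 for Pgr with an adjusted p of 0.153. DESeq2 gave Areg after standard weaning an adjusted p of 0.0811. In the authors' deposited table, the log2 fold change of SW females over SW males was 5.07 for Pgr and 4.93 for Areg. Without male animals 54, 78 and 86, the ones with the most Krt18 in their groups, limma gave 3.48 for Pgr, 2.91 for Areg and 2.23 for Prlr after standard weaning.

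**Figure D2:**
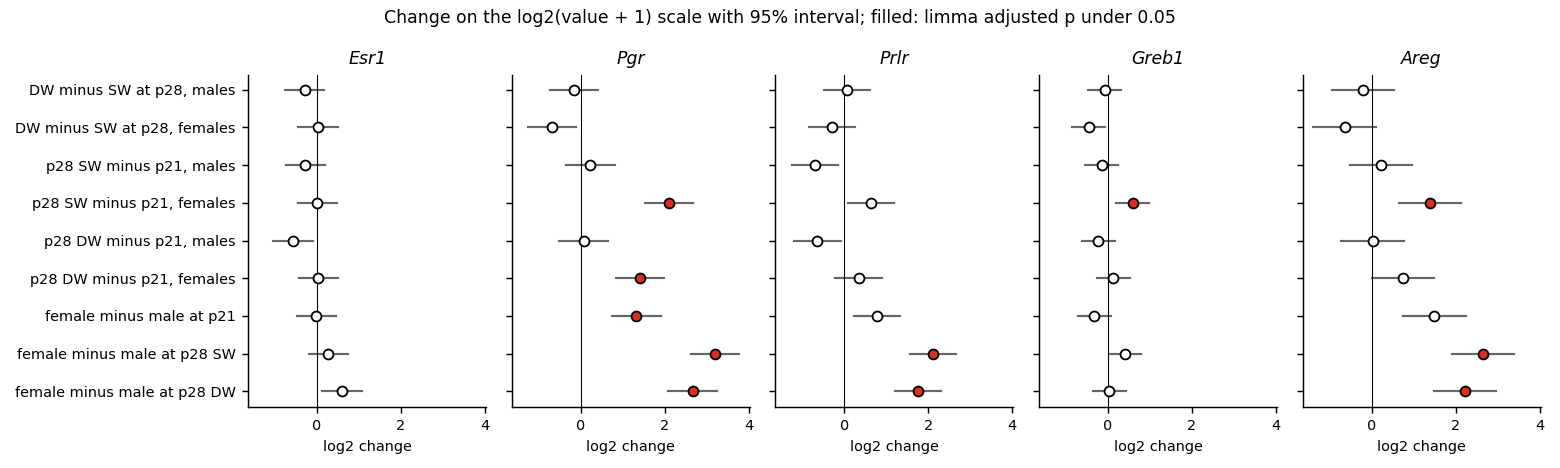
Change of each gene on the log2(value + 1) scale (x axis) in the 9 comparisons between groups (y axis); points are limma estimates, lines their 95% intervals, and filled points passed a limma adjusted p of 0.05. Pgr passed in 5 of the 9 comparisons, Areg in 3, Prlr in 2, Greb1 in 1 and Esr1 in none.

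The second comparison followed each sex from p21 to p28. In females weaned at p21, Pgr rose by 2.10 ± 0.28 (limma adjusted p = 2.45e-05), Areg by 1.39 ± 0.36 (limma adjusted p = 0.0125) and Greb1 by 0.59 ± 0.19 (limma adjusted p = 0.0439), while Esr1 had an estimate of 0.0083 (95% interval -0.46 to 0.48). These were 3 of 5 genes, against 11.6% of all genes tested. Prlr differed by 0.64 (95% interval 0.088 to 1.19), with a limma adjusted p of 0.135. In females that stayed with the mother only Pgr was called, at 1.41 ± 0.28 (limma adjusted p = 0.00226), where 12.1% of genes were called. Without DW females 82 and 83 Pgr gave 1.46 (limma adjusted p = 0.00976). Areg there differed by 0.75 (95% interval 0.0055 to 1.49, limma adjusted p = 0.178) and Greb1 by 0.13. The 2 female comparisons share the p21 females, so they are not independent of each other. By edgeR, Greb1 alone was called in standard-weaned females (2.96, adjusted p = 0.0344), Pgr had 2.52 with an adjusted p of 0.132, and no gene of the 5 was called in delayed-weaned females. The Greb1 call by limma was lost on leaving out 7 of the 8 animals in turn, and the Areg call on leaving out SW female 75.

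In males no gene of the 5 was called from p21 to p28. The share of all genes called was 11.9% after standard weaning and 15.0% after delayed weaning. The Prlr estimates were below 0 in both, at -0.70 (95% interval -1.25 to -0.15, limma adjusted p = 0.0859) and -0.64 (95% interval -1.19 to -0.090, limma adjusted p = 0.107). Without p21 male 53, Prlr fell in both, by 0.96 (limma adjusted p = 0.0209) and by 0.90 (limma adjusted p = 0.0308). Esr1 had an estimate of -0.57 in delayed-weaned males (limma adjusted p = 0.0921), and without male 54 it was -0.76 with a limma adjusted p of 0.0336. With all animals, DESeq2 called Prlr in both male comparisons and Esr1 in delayed-weaned males.

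The third comparison set delayed against standard weaning at p28. None of the 5 genes passed the test in either sex, where 0.256% of genes were called in males and 1.27% in females. At an unadjusted p under 0.05, Pgr and Greb1 passed in females and no gene did in males, and edgeR and DESeq2 called none in either sex. In females 4 of the 5 estimates lay below 0, with Pgr at -0.69 (95% interval -1.26 to -0.11, limma adjusted p = 0.214), Areg at -0.64 (95% interval -1.382 to 0.11, limma adjusted p = 0.324), Greb1 at -0.46 (95% interval -0.84 to -0.069, limma adjusted p = 0.216) and Prlr at -0.30 (95% interval -0.85 to 0.25, limma adjusted p = 0.534). Esr1 was at 0.027 (95% interval -0.44 to 0.50). The intervals leave room for falls in Pgr and Areg of more than 1 on this scale. Without DW females 82 and 83 no gene of the 5 was called and the share of all genes called fell to 0.0437%, with Pgr at -0.63, Areg at -0.42, Greb1 at -0.37, Prlr at -0.37 and Esr1 at -0.21. In males the estimates ran from -0.29 for Esr1 to 0.065 for Prlr.

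Whether the sexes moved differently was tested directly. The p21 to p28 change after standard weaning differed between the sexes for Pgr, by 1.86 ± 0.39 (limma adjusted p = 0.0156), where 1.03% of genes were called. This difference depends on the scale: on the plain log2 scale of edgeR it was -0.032, and DESeq2 gave a p21 to p28 SW estimate of 2.59 in males, whose SW reads lie mostly in animal 78, beside 2.55 in females. For Prlr the difference was 1.34 ± 0.38 (limma adjusted p = 0.103), and 1.60 without p21 male 53 (limma adjusted p = 0.0208). For delayed weaning the differences were 1.34 for Pgr (limma adjusted p = 0.148) and 0.98 for Prlr (limma adjusted p = 0.214), none of the 5 was called, and 0.0687% of genes were. None was called for a different weaning effect between the sexes, where 0.0187% of genes were called.

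Of 73 tested genes in 7 lists of related pathways, 11 were higher in SW females than in SW males and none lower, which is 15.1% against 3.54% of all genes. In DW animals 10 of the 73 were higher in females and 2 lower (16.4%, against 2.46% of all genes), and at p21 3 were higher (4.11%, against 0.356%). Of 8 other steroid receptors in the table, none was called between the sexes at any stage. From p21 to p28 in standard-weaned females, where 11.6% of all genes were called, 2 fell. They were the membrane oestrogen receptor Gper1 (-0.58) and the oestrogen-related receptor Esrrg (-0.75). In males Esrrg read 7.85 ± 2.51 at p21 and 4.69 ± 0.448 after SW, and Gper1 1.49 ± 0.469 and 1.31 ± 0.246. Nr3c2 read higher after SW than at p21 in females (8.68 ± 0.913 against 5.47 ± 0.729) and in males (8.59 ± 2.89 against 4.02 ± 1.69). Of 13 oestrogen receptor cofactors and partners, 5 were higher in SW females than in SW males and none lower: the pioneer factor Foxa1 (4.32), Cited1 (2.91), Gata3 (2.58), Tfap2a (2.33) and Tfap2c (1.92). The same 5 rose from p21 to p28 in standard-weaned females, where 11.6% of all genes were called. In DW females Gata3 (-1.36, limma adjusted p = 0.00745) and Tfap2a (-1.07, limma adjusted p = 0.0411) were lower than in SW females. Without DW females 82 and 83 neither was called, at -0.75 (limma adjusted p = 0.382) and -0.598 (limma adjusted p = 0.916). The general coactivators and corepressors of the list did not pass in the SW sex comparison, and its median change was 0.035, against 0.0069 over all genes. No gene of the remaining pathway lists was called between DW and SW animals in either sex.

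Among 15 other oestrogen targets, 3 were higher in SW females than in SW males: the lactoferrin gene Ltf (3.71), Stc2 (2.22) and Rerg (0.28). Here and for the lists that follow, the share of all genes called in this comparison was 3.54%. Their list median was 0.15. Ltf read 20.1 ± 5.61 in SW females, 10.6 ± 2.90 in DW females and 0.720 ± 0.917 in SW males. Of 8 other progesterone targets, 1 was higher in SW females than in SW males, Wnt4 (2.11, limma adjusted p = 8.60e-06), the secreted factor named above. Wnt4 read 6.00 ± 1.54 in SW females, 3.14 ± 1.31 in DW females and 1.89 ± 0.749 in p21 females. Tnfsf11, which encodes RANKL, another progesterone-induced signal, read 1.72 ± 0.309 in SW females and 1.46 ± 0.637 in SW males and was not called.

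Of 10 prolactin pathway genes, 1 was higher in SW females than in SW males, the alveolar transcription factor gene Elf5 (2.45, limma adjusted p = 5.01e-08). The 2 groups read 5.29 ± 0.959 and 0.174 ± 0.343. The signal transducers Jak2, Stat5a and Stat5b were not called in that comparison. Stat5a read 80.4 and 79.97 in DW females 76 and 77, 57.99 and 49.4 in animals 82 and 83, and 92.8 to 107 in p21 females. The DW against p21 difference was -0.59 (limma adjusted p = 0.00504) with all 4 DW females and -0.30 (limma adjusted p = 0.110) without animals 82 and 83. Of 10 genes for the EGF receptor family and its ligands, 1 was higher in SW females than in SW males, the receptor Erbb3 (1.98, limma adjusted p = 5.63e-07), with 29.2 ± 4.51 against 6.70 ± 1.58. Egfr, the receptor for amphiregulin, read 54.4 ± 8.80 and 54.8 ± 9.78. Of 9 genes of steroid metabolism, none was called between the sexes at any stage.

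**Figure D3:**
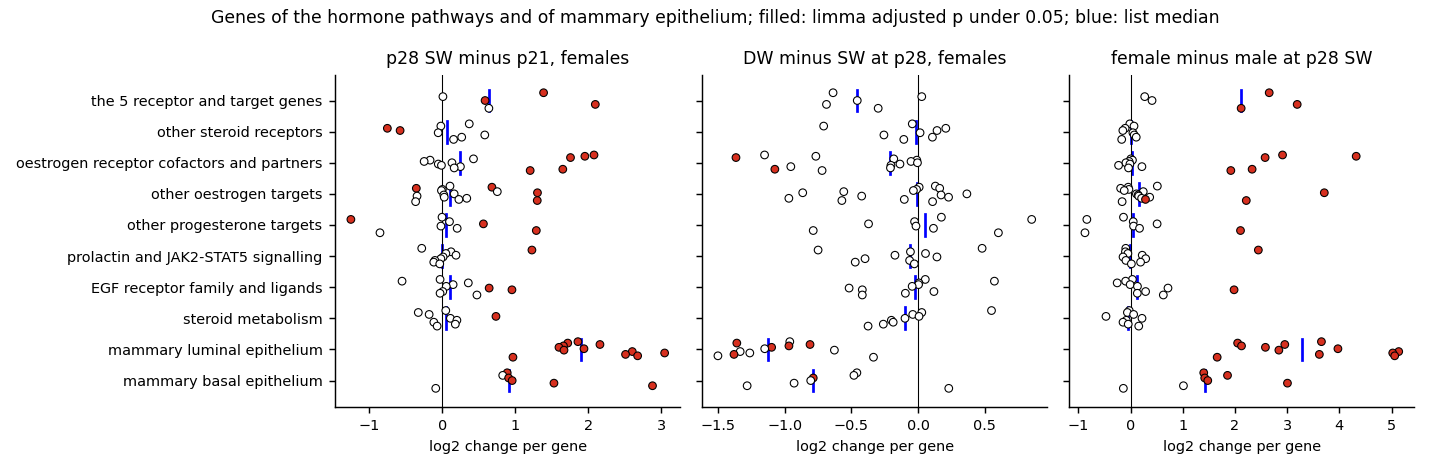
Change per gene on the log2(value + 1) scale (x axis) for the 5 hormone genes, the pathway lists and the mammary epithelial marker lists (y axis), in 3 comparisons; filled points passed a limma adjusted p of 0.05 and blue bars are list medians. All 12 luminal markers passed in the left and right panels, whereas most pathway lists have medians near 0 with a few genes far to the right.

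Luminal mammary markers were also called in these comparisons, and their part in the results was tested only by the covariate described below. All 12 were higher in SW females than in SW males, where 3.54% of all genes were called. In DW animals 11 of 12 were higher in females (2.46% of all genes called), and at p21 8 of 12 (0.356%). All 12 rose in females from p21 to p28 after standard weaning (11.6% of all genes called) and 5 after delayed weaning (12.1%). In DW females 5 of 12 were lower than in SW females, where 1.27% of all genes were called. The lowest luminal sums of the DW group were those of animals 82 and 83. Without them 7 of 12 rose from p21 to DW, where 8.70% of all genes were called. None of the 12 was then called between DW and SW (median -0.70), where 0.0437% of all genes were called. Of the 7 basal markers, 5 were higher in SW females than in SW males (3.54% of all genes called). Trp63 (-0.14) and Oxtr (1.01, limma adjusted p = 0.201) were not called. Krt18, a luminal keratin, read 63.5 ± 7.51 in SW females, 26.6 ± 12.5 in DW females, 10.7 ± 5.36 in p21 females and 1.81 ± 3.38 in SW males. In males Krt18 lay mostly in the animals that held most of the Pgr and Areg reads. It read 2.83 in animal 54 (p21), 6.87 in animal 78 (SW) and 1.60 in animal 86 (DW), against 0.224 or less in the other 9. Foxa1 read 1.60, 5.96 and 1.09 in those 3 males, 0.0150 in DW male 80 and 0 in the other 8.

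**Figure D4:**
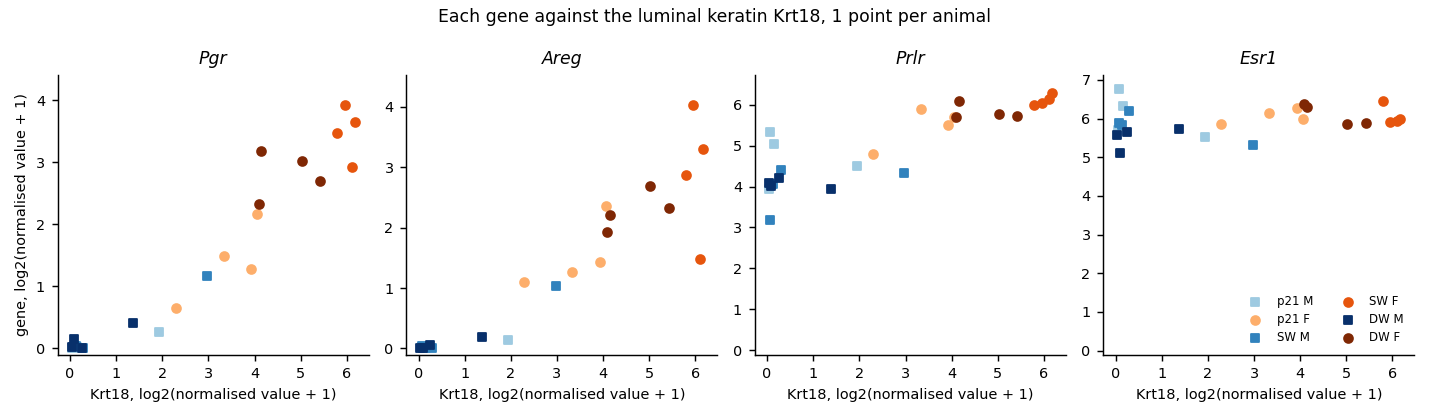
Pgr, Areg, Prlr and Esr1 (y axes) against the luminal keratin Krt18 (x axis), all on the log2(value + 1) scale, with 1 point per mouse, squares for males and circles for females, coloured by group. Pgr and Areg climb with Krt18 from the males near 0 through the p21 females to the p28 females, whereas Prlr and Esr1 keep levels of several units in males that lack Krt18. This climb is between groups, and within the SW females or the DW females the Pgr points do not rise steadily with Krt18.

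The ratio of Pgr to Krt18 overlapped between the 3 female groups. Its median was 0.174 at p21 (0.0997 to 0.224), 0.175 in SW (0.0975 to 0.232) and 0.239 in DW (0.131 to 0.481). The DW ratios were 0.131 and 0.227 in animals 76 and 77, and 0.252 and 0.481 in animals 82 and 83. Standard weaning against p21 differed by 0.013 on the log2 scale (exact two-sided permutation test, p = 0.943) and DW against SW by 0.60 (exact permutation p = 0.286), which does not show that the groups were alike. Over Foxa1, another luminal gene, the Pgr ratio had medians of 0.179 at p21, 0.376 in SW and 0.336 in DW females. On that ratio SW lay 0.64 above p21 on the log2 scale (exact permutation p = 0.286), DW 0.67 above p21 (exact permutation p = 0.257) and DW 0.028 above SW (exact permutation p = 0.971). In SW male 78 the ratio of Pgr to Krt18 was 0.179, in male 86 it was 0.201 and in male 54 it was 0.0704. Prlr had another order: its ratio to Krt18 had medians of 4.87 at p21, 1.07 in SW and 2.43 in DW females. The SW females lay below both other groups without overlap (exact permutation p = 0.0286 for each, the smallest possible with 4 against 4, and 0.143 after adjustment over 15 ratio tests). Mean Krt18 was 10.7 at p21 and 63.5 in SW females, and mean Prlr 45.2 and 68.5. Krt18 read 42.0 and 31.5 in DW females 76 and 77, but 16.0 and 16.7 in animals 82 and 83. Prlr was also present in males with almost no Krt18, so this ratio does not measure Prlr per luminal cell. The ratio of Areg to Pgr had medians of 1.18, 0.696 and 0.711 in p21, SW and DW females, and no ratio test passed after adjustment.

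With an epithelial score (the mean log2 level of the 19 luminal and basal markers) as a covariate, none of the 5 genes was called between the sexes at p28. After standard weaning the remaining differences were 1.28 for Pgr (limma adjusted p = 0.713), 1.09 for Prlr (limma adjusted p = 0.713) and 1.00 for Areg (limma adjusted p = 0.740), and 6 genes of the whole table were called. From p21 to p28 in standard-weaned females, Pgr had 0.88 (limma adjusted p = 0.395) with the score in the fit. The score itself separates these groups, so its share in the differences and that of sex or age cannot be told apart in these samples. It also includes Trp63 and Oxtr, which were not called between SW females and SW males by the limma test. The Oxtr estimate there was 1.01 (95% interval 0.25 to 1.77). Oxtr rose from p21 to p28 SW in males too, by 2.21 (limma adjusted p = 0.00055). A score without these genes was not tested. Pgr in delayed-weaned females against p21 remained called with all 4 DW females, at 0.84 (limma adjusted p = 0.0465).

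Across the 24 mice Pgr and Areg varied together (Pearson r = 0.965 on the log2 scale), as did Pgr and Prlr (r = 0.855), whereas Esr1 with Pgr gave 0.271. Within the 12 females the values were 0.854, 0.824 and 0.0203. These are descriptions over mice that share groups and the epithelial levels above. Of 13073 genes with a mean log2 level of at least 1, those most like Pgr over the 24 mice were Rasgrf1 (r = 0.979), Gipc2 (0.978) and Fxyd3 (0.9751). For Areg they were Rasgrf1 (0.955), Vtcn1 (0.947) and Elf5 (0.939). For Prlr they were Fxyd3 (0.901), Kcnk1 (0.889) and Lratd1 (0.883). Esr1 had looser neighbours, led by Stk39 (0.746), 1810030O07Rik (0.732) and Lix1 (0.731), and Greb1 had Prelid2 (0.774), Gprc5a (0.756) and Tgif1 (0.756). Over the 12 females alone the genes most alike included Tpbg (0.944) and Tfcp2l1 (0.941) for Pgr, Perp (0.918), Nipal2 (0.914) and 2810408A11Rik (0.910) for Prlr, and Ccn2 (0.917), Txndc16 (0.902) and Lpin2 (0.880) for Areg. In the same 12 females Hpca (0.916), Cdh11 (0.900) and Mmp14 (0.880) led for Greb1, and Gnb1 (0.917), She (0.907) and Hira (0.902) for Esr1.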

How the data were processed

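Poly(A) RNA libraries of 24 mice were grouped by the age, sex, weaning group and ID labels. The titles of the p21 libraries name p28 and SW, and their descriptions and age labels were followed. No animal number occurs in more than 1 group, and no samples were paired. Nothing in the labels says whether littermates were used. The p-values set differences against the spread between these mice, taken as independent. The 5 genes and all gene lists were chosen with earlier results of these data known.

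The authors deposited a normalised signal per gene and sample. All values were whole multiples of each sample's smallest value within a tolerance of 0.01, so whole reads could be recovered. The submitters' processing notes list fastp, HISAT2, featureCounts, DESeq2 1.38.3 and mm10, with no settings. They do not say whether counting used strand. Deposited gene starts differ from those of GRCm38 for Areg, Esr1 and Greb1, so the build of the deposited positions is unsettled and they are not printed. The authors' deposited table also gives log2 fold changes for 15 comparisons and p-value columns. The latter are named as adjusted but hold almost no ties, and were not used. Of 16208 rows, 90 repeats were left out.

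The main test was limma 3.58.1 (R 4.3.3) with a variance trend on log2(value + 1), with all 24 libraries, 6 group coefficients and 18 residual degrees of freedom, over 16005 genes kept by filterByExpr (minimum count 10). A gene was called at a two-sided Benjamini-Hochberg adjusted p under 0.05. The design had named edgeR for raw counts and limma for normalised values, which the file holds. The script was tested on simulated data. Alternatives were edgeR 4.0.16 with TMM or DESeq2 size factors, DESeq2 1.42.0, TMM rescaling, a pseudocount of 0.1, no filter, no trend, only the compared groups, the epithelial score or the run of animal numbers as a covariate, leaving out each animal and leaving out libraries 53 and 84. Leaving out males 54, 78 and 86, or DW females 82 and 83, was added after seeing the data. All 5 genes passed the filter. The genes named are the 5, genes of the lists, and for each of the 5 the 3 genes with the highest Pearson r, of which 1 is not reported here. Promoters come from RefSeq on GRCm38.p6, and all 5 symbols matched.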

Additional observations from a re-analysis of the deposited data

Results flagged for a closer look

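Of 30 gene and group combinations, 6 held 1 animal far from the other 3 by Dixon's criterion. About 1.5 would be flagged by chance if all 30 were independent with a normal spread. The 6 that were flagged follow. On the log2(value + 1) scale these were Pgr at 0.26 in p21 male 54, Areg at 0.15 in p21 male 54, Pgr at 1.16 in SW male 78, Areg at 1.03 in SW male 78, Greb1 at 1.24 in p21 male 53, and Esr1 at 6.46 in SW female 74. Males 54 and 78 are also those with the highest Krt18 of their groups, and male 53 has the fewest detected genes. Animals 54 and 78 are each counted for both Pgr and Areg, and the other males of their groups had 6 reads or fewer of either gene. For these cases the figure of 1.5 is no fair measure. The part of these values in the results was not tested beyond leaving the animals out.

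The change of Pgr from p21 to p28 after standard weaning differed between females and males by 1.86 on the log2(value + 1) scale, by the interaction term (limma adjusted p = 0.0156). It depends on that scale: on the plain log2 scale the estimate by edgeR with TMM was near 0, with the opposite sign. Pgr in males was near 0, with 26 reads in all at p21 and 129 of 137 reads after standard weaning in animal 78.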

How the results depend on the processing

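Over the alternatives, 225 of 263 recomputed counts of called genes stayed at the main count or within 1.5 times of it, and of 247 recomputed changes that were called, 197 kept direction and side of the threshold, 48 kept direction and lost the call, and 2 reversed. The cause was not tested. No paired analysis was possible because no animal number occurs in more than 1 group. Counts of the 5 genes that moved were as follows. From p21 to p28 SW in females (3 with limma), edgeR with TMM, edgeR with DESeq2 size factors and DESeq2 each called 1, and the epithelial covariate 0. From p21 to DW in females (1), both edgeR fits, DESeq2 and a pseudocount of 0.1 called 0. From p21 to SW in males (0), DESeq2 and leaving out libraries 53 and 84 called 1. From p21 to DW in males (0), DESeq2 called 2, and leaving out libraries 53 and 84 or the 3 males with the most Krt18 called 1. Between the sexes at p21 (1), both edgeR fits, only the compared groups, the epithelial covariate and leaving out 53 and 84 called 0, and a pseudocount of 0.1 and the run covariate called 2. Between the sexes at p28 the epithelial covariate called 0 in SW and in DW. For the sex by age difference (1), both edgeR fits, a pseudocount of 0.1 and the epithelial covariate called 0. Depth limits Greb1 most, with 2 to 14 reads per library in p21 females, and Pgr and Areg in males. Leaving out single animals gave counts of 0 to 1 for SW and DW against p21 in males and for sex at p21, 1 to 3 for SW against p21 in females, and 1 to 2 for sex by age.

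The called change that reversed was the Pgr sex by age difference, at -0.032 with edgeR and TMM and -0.041 with DESeq2. Every other change of sign was in an estimate that was not called, on the log2 scale. Without the 3 males with the most Krt18 these were Pgr 0.037 and Areg 0.0095 for DW against SW males. With edgeR and TMM these were Prlr -0.015 for DW against SW males, Esr1 -0.0044 for SW against p21 females, Pgr 0.82 and Areg 1.59 for sex by weaning and Areg -1.33 for sex by age. With DESeq2 these were Prlr -0.013 for DW against SW males, Pgr 0.77 and Areg 1.51 for sex by weaning and Areg -1.33 for sex by age. With edgeR and DESeq2 size factors these were Prlr -0.012 for DW against SW males, Pgr 0.77 and Areg 1.55 for sex by weaning and Areg -1.30 for sex by age. With the run covariate these were Prlr -0.20 for DW against SW males and Esr1 -0.058 for DW against SW females. With the epithelial covariate these were Esr1 -0.25 and Prlr 0.052 for DW against SW females, Prlr -0.019 for SW against p21 females, Pgr -0.015 and Areg -0.049 for DW against p21 males, Esr1 0.34 for sex at p21 and Pgr 0.065 and Areg 0.075 for sex by weaning. Without DW females 82 and 83 these were Esr1 -0.21 for DW against SW females and Esr1 -0.20 for DW against p21 females. Without libraries 53 and 84 these were Greb1 0.16 for SW against p21 males and Greb1 0.039 for DW against p21 males. With TMM rescaling these were Esr1 -0.016 for SW against p21 females. Leaving out single animals gave ranges that cross 0 of Pgr -0.26 to 0.12, Prlr -0.20 to 0.20, Greb1 -0.14 to 0.0064 and Areg -0.29 to 0.052 for DW against SW males, Esr1 -0.066 to 0.16 for DW against SW females, Pgr -0.052 to 0.33, Greb1 -0.28 to 0.12 and Areg -0.026 to 0.32 for SW against p21 males, Esr1 -0.12 to 0.079 for SW against p21 females, Pgr -0.015 to 0.14, Greb1 -0.35 to 0.039 and Areg -0.016 to 0.063 for DW against p21 males, Esr1 -0.058 to 0.12 for DW against p21 females, Esr1 -0.20 to 0.21 for sex at p21 and Greb1 -0.042 to 0.093 for sex at DW.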

Other observations

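Some further genes of the 7 pathway lists changed with age. From p21 to SW, 24.7% of their 73 tested genes were called in females (11.6% of all genes) and 8.22% in males (11.9%). From p21 to DW, 5.48% were called in females (12.1% of all genes) and 11.0% in males (15.0%). Hsd11b1, which encodes the enzyme that regenerates active glucocorticoid, was higher at p28 SW than at p21 by 0.74 in females (limma adjusted p = 0.0253) and by 1.1 in males (limma adjusted p = 0.00214), from 30.5 ± 2.43 to 51.8 ± 7.96 and from 33.7 ± 8.12 to 76.8 ± 37.0. After delayed weaning it read 52.3 ± 10.6 in females and 59.6 ± 7.60 in males. Ctsd, an oestrogen target that encodes the lysosomal protease cathepsin D, rose by 0.68 in SW females (limma adjusted p = 0.00163) and by 0.69 in SW males (limma adjusted p = 0.00235). Fkbp5, a target of both progesterone and glucocorticoid receptors, fell by 1.25 in SW females against p21 (limma adjusted p = 0.0224) and rose by 1.30 in DW males against p21 (limma adjusted p = 0.0175). Fkbp5 read 79.9 ± 11.1 in DW males, 37.1 ± 14.2 in SW males and 32.3 ± 7.37 in p21 males. Its difference between DW and SW males was not called.

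The kappa-casein gene Csn3, a milk protein gene, was higher in females at every stage: by 4.44 at p21 (limma adjusted p = 0.00537), 4.95 in SW (limma adjusted p = 4.48e-05) and 4.84 in DW animals (limma adjusted p = 0.000167). It read 42.7 ± 33.2 in p21 females, 58.4 ± 12.9 in SW females and 40.5 ± 8.12 in DW females. The other milk protein genes in the table, Csn2 and Lalba, were not called between the sexes at any stage. Lalba differed by 0.30 at p21, 0.36 in SW and 0.22 in DW animals, and Csn2 by 0.0049, 0.0061 and -0.018. The oxytocin receptor gene Oxtr, listed here with the basal markers, rose from p21 to p28 SW in both sexes, by 2.88 in females (limma adjusted p = 1.47e-05) and by 2.21 in males (limma adjusted p = 0.00055). Oxtr read 73.4 ± 14.2 in SW females and 36.2 ± 8.25 in SW males. Krt5, the basal keratin, read 0.162 ± 0.313 in the same SW males.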
